A study of Homo sapiens with 6 samples.

Results

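The genes described here encode proteins of the large subunit of the human mitochondrial ribosome and carry the symbol MRPL followed by a number. They were taken as every row of the deposited FPKM table whose symbol is MRPL and digits alone, which leaves out 33 pseudogene rows. The rule found 49 genes among 57688 rows, of which 46 had a mean of at least 1 FPKM over all libraries and were tested, and 3 did not. FPKM is a read number scaled to gene length and library depth. The cells were WM3248, a human line grown from a primary melanoma. In the siPGC1a group (n = 3 libraries) they had been transfected with 1 siRNA against PPARGC1A, and in the siNC group (n = 3) with a commercial negative control siRNA. Both siRNAs were used at 30 nM with the same lipid reagent, and RNA was taken 48 h later. Nothing in the labels tells whether replicate libraries stem from separate cultures. The p-values then speak only of the spread among these 6 libraries, which may be technical. Only 1 siRNA was used, so a consequence of losing PPARGC1A and any other effect of that siRNA cannot be told apart.

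The mitochondrial ribosome translates the few mRNAs of the mitochondrial genome, all of which encode subunits of the respiratory chain and the ATP synthase. Its large subunit forms peptide bonds and passes the new chain through an exit tunnel to the inner membrane. Its proteins are encoded in the nucleus, made in the cytosol and imported. One class descends from bacterial ribosomal proteins and the other was gained by mitochondria. PGC1-alpha, the product of PPARGC1A, is a coactivator that raises transcription of nuclear genes for mitochondrial proteins together with factors such as NRF1, GABP and the estrogen-related receptors, and in a subset of melanomas it is driven by MITF.

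PPARGC1A itself stood at 0.4, 0.354 and 0.413 FPKM in siPGC1a cells, against 0.932, 1.04 and 0.947 FPKM in siNC cells. The groups did not overlap, and the mean was 60.0% lower in siPGC1a cells. On the log2 scale the change was -0.51 with an SE of 0.066 (limma adjusted p = 0.000234). All fold changes are differences of mean log2(FPKM + 1), siPGC1a minus siNC, and the added 1 shrinks those of weakly expressed genes such as this one. With a pseudocount of 0.1 in place of 1 the fold change of PPARGC1A was -1.14. Depth was alike, with about 25160000 to 26430000 reads per library, and about 380 to 4712 of them fell on each tested MRPL gene. The cell type was checked against markers. The lineage factor SOX10 was at 217 to 239 FPKM in siPGC1a cells, against 237 to 257 FPKM in siNC cells, and S100B at 901 to 949 FPKM in siPGC1a cells, against 795 to 813 FPKM in siNC cells. DCT, a pigment enzyme, was at 245 to 268 FPKM in siPGC1a cells, against 383 to 405 FPKM in siNC cells. MITF, the melanocyte master regulator, was at 5.35 to 5.82 FPKM in siPGC1a cells, against 7.09 to 7.34 FPKM in siNC cells, and the pigment granule gene PMEL at 3.74 to 3.84 FPKM in siPGC1a cells, against 4.99 to 5.53 FPKM in siNC cells. The pigment genes MLANA, TYR and TYRP1 averaged 1.44, 1.28 and 0.994 FPKM over the 6 libraries. Of these markers S100B was separated upward in siPGC1a cells, DCT, MITF, PMEL, MLANA and TYR downward, and the summed level of all 8 was 1415 to 1424 FPKM in siPGC1a cells, against 1440.2 to 1480.3 FPKM in siNC cells. Of the markers of other cell types, KRT5, KRT1, KRT14, CDH5, VWF, PTPRC, CD3E, CD68, DCN and PDGFRA averaged below 1 FPKM, and KRT10 and LUM averaged 21.5 and 7.45 FPKM. The sum of the 3 fibroblast markers was 5.93 to 7.55 FPKM in siPGC1a cells, against 8.61 to 9.37 FPKM in siNC cells. The part of such markers in the results below was not tested. In bulk RNA, fewer cells of a kind and less RNA per cell cannot be told apart.

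Most MRPL transcripts were more abundant in siPGC1a cells, by a small amount. Of the 46 tested genes 30 rose, 1 fell and 15 did not pass the threshold (limma with Benjamini-Hochberg adjustment over all 12020 tested genes, adjusted p under 0.05). Over all tested genes 25.6% rose and 22.5% fell. That background is less expressed, with a median level of 7.02 FPKM over all tested genes, against 24.1 FPKM over the members. With a filter of 5 FPKM, which every tested member passed, 2519 of all genes rose and 1607 fell, against 3075 and 2707 here. Fewer genes were tested with that filter, so these counts are not shares of the same set. With it 31 members rose and 1 fell. Rises thus outnumbered falls more clearly among better expressed genes. The fold change was above 0 for 41 members and below 0 for 5, with a median of 0.20 on the log2 scale over the members, beside 0.01 over all tested genes. The members that rose did so 1.10-fold to 1.44-fold in mean FPKM, with a median of 1.22-fold, and 0 of the 46 reached 1.5-fold in either direction, beside 728 of all 12020 tested genes. The 3 siPGC1a values lay wholly above the 3 siNC values for 31 members and wholly below for 1, against 29.8% and 27.4% of all tested genes (57.2% for either direction). In the 5 settings with another pseudocount, scaling or variance model, 27 to 30 members rose and 1 fell.

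**Figure D1:**
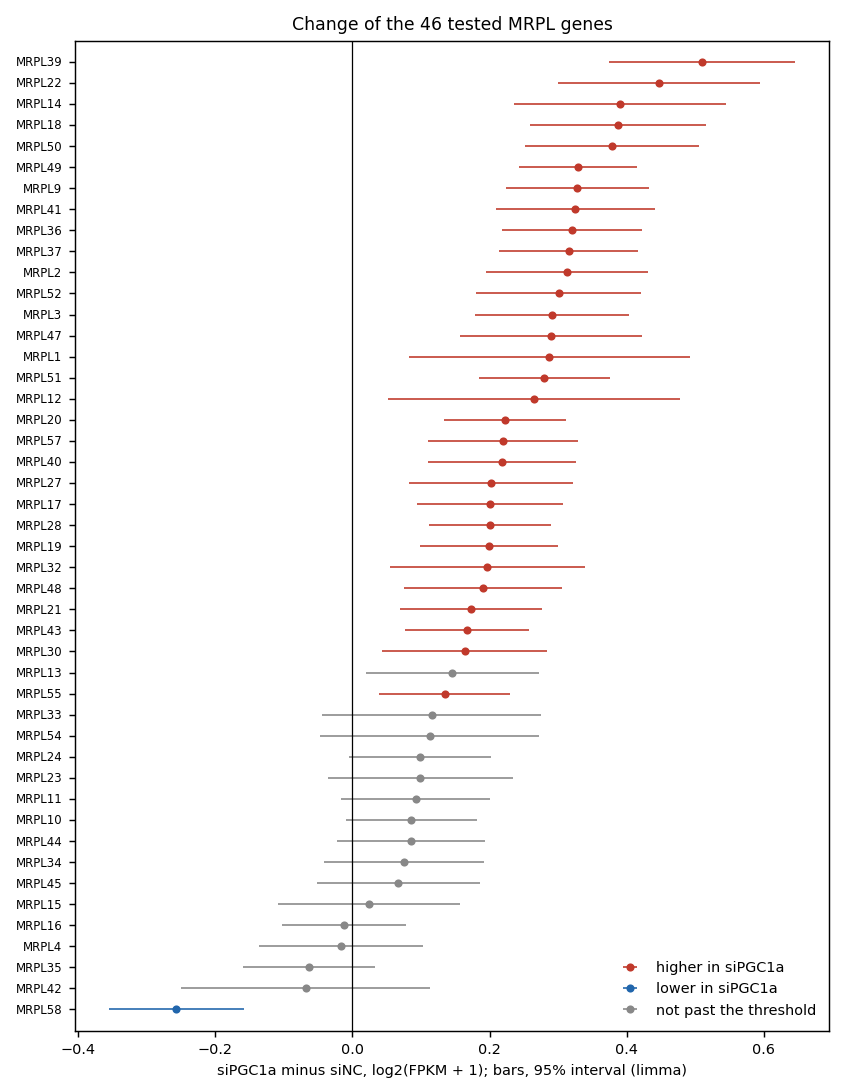
The fitted change of each tested MRPL gene (siPGC1a minus siNC, log2(FPKM + 1), points) with its 95% interval from limma (bars), ordered by size. Red points are the 30 genes that rose, the blue point is MRPL58, which fell, and grey points are the 15 that did not pass the threshold.

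The largest rise was that of MRPL39, a protein found in mitochondrial ribosomes and not in bacterial ones. Its level was 49.9, 50.5 and 59.1 FPKM in siPGC1a cells, against 36.9, 37.1 and 36.8 FPKM in siNC cells. All 3 siPGC1a libraries were higher than every siNC library, and siPGC1a replicate 3 was the highest. The rise was 1.44-fold (log2 fold change 0.51, SE 0.06, limma adjusted p = 0.000139), and 246 of the 12020 tested genes had a larger fold change. MRPL22, whose bacterial homolog lines the exit tunnel, stood at 7.49, 7.59 and 8.27 FPKM in siPGC1a cells, against 5.96, 4.88 and 5.52 FPKM in siNC cells. The groups did not overlap, and the rise was 1.43-fold (log2 fold change 0.45, SE 0.066, limma adjusted p = 0.000484). MRPL14, a protein of the face that meets the small subunit, was at 31.8, 35.6 and 36.7 FPKM in siPGC1a cells, against 23.8, 27.9 and 27.1 FPKM in siNC cells. Here siNC replicate 1 was the lowest library, and the rise was 1.32-fold (limma adjusted p = 0.00138).

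MRPL18, a protein of the central protuberance whose bacterial homolog binds 5S rRNA, was measured at 25.8, 27.4 and 27.7 FPKM in siPGC1a cells, against 21.8, 20.7 and 18.7 FPKM in siNC cells. Every siPGC1a value was above every siNC value, at a ratio of 1.32 (log2 fold change 0.39, SE 0.057, limma adjusted p = 0.000497). MRPL50, a mitochondria-specific protein, was the least abundant tested member, with 6.59, 6.39 and 6.78 FPKM in siPGC1a cells, against 5.24, 4.45 and 4.84 FPKM in siNC cells. It rose 1.36-fold (limma adjusted p = 0.00053), with no overlap. The mitochondria-specific MRPL49 gave 26.8, 27.7 and 27.6 FPKM in siPGC1a cells, against 21.8, 21.1 and 21.9 FPKM in siNC cells. The spread within either group was small, and the rise of 1.27-fold had the smallest adjusted p of all members (limma adjusted p = 0.000132). MRPL9, a homolog of bacterial L9, had 29.5, 30.7 and 32.1 FPKM in siPGC1a cells, against 23.3, 24.3 and 25.3 FPKM in siNC cells, a rise of 1.27-fold without overlap (limma adjusted p = 0.000385). For MRPL41, another mitochondria-specific protein, the libraries gave 48.8, 50.7 and 49.7 FPKM in siPGC1a cells, against 36.5, 42.1 and 40.1 FPKM in siNC cells. Its 3 siPGC1a values were close together and above all siNC values, at 1.26-fold (limma adjusted p = 0.000766).

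MRPL58 was the 1 member that fell. It encodes a peptidyl-tRNA hydrolase, built into the large subunit, that frees stalled peptide chains. Its level was 16.2, 15.5 and 16.8 FPKM in siPGC1a cells, against 19.0, 19.6 and 19.9 FPKM in siNC cells. All siPGC1a libraries were below all siNC libraries, and the ratio was 0.829 (log2 fold change -0.26, SE 0.044, limma adjusted p = 0.00112). The call held in all 14 other settings.

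Promoter windows are shown for 3 members to set the letters beside the values: MRPL22, the largest rise among bacterial-type members, MRPL52, which rose 1.25-fold, and MRPL58. They run from 250 bases before to 50 after the RefSeq gene start, on the strand of the gene, in build GRCh38.p14, and are credited to RefSeq. MRPL22 lies at chr5:154940823-154941122 on the plus strand, MRPL52 at chr14:22829637-22829936 on the plus strand and MRPL58 at chr17:75012420-75012719 on the plus strand. Capitals mark the words searched on both strands, which were GCATGCGC (the NRF1 core), CCGGAAG (the ETS core that GABP reads), AAGATGGC (YY1), TCAAGGTCA and its inner AAGGTCA (estrogen-related receptors) and CACGTG (E-box).
MRPL22: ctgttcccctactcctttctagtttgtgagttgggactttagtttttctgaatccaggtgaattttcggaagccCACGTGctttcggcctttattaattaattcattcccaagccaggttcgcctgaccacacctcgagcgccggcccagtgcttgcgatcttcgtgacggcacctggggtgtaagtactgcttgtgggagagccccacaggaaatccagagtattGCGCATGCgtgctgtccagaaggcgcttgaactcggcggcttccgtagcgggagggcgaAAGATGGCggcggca
MRPL52: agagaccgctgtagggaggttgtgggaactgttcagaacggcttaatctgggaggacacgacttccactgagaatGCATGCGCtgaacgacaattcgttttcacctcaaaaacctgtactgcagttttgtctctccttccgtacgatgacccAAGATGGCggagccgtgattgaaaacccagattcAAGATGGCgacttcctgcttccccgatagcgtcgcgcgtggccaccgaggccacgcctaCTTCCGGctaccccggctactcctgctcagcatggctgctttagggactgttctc
MRPL58: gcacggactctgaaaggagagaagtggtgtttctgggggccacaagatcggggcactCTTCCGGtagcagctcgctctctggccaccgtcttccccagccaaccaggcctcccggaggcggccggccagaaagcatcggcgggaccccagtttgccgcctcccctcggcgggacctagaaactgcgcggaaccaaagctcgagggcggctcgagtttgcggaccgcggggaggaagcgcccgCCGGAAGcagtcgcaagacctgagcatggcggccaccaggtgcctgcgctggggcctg

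MRPL22 holds the NRF1, YY1 and E-box words, MRPL58 holds the ETS word at 2 places, and MRPL52 was the 1 member that holds the NRF1, ETS and YY1 words together. The windows shown do not stand for all members. Among the 8 largest rises, MRPL39, MRPL14, MRPL18, MRPL9 and MRPL41 hold none of the words. Of the 49 genes 42 had a window in the table, 39 of them tested, and 25 of these 39 hold at least 1 of the words. The ETS word stood in 15 of these 39 windows (38.5%), against 10.7% of all 27305 promoter windows and 20.4% of those of tested genes. For the YY1 word it was 10 of 39 (25.6%), against 3.0% and 5.8%, and for the NRF1 word 4 of 39 (10.3%), against 3.3% and 5.9%. Of the 39 tested members with a window 28 rose. Among the holders of a word, 11 of 15 with the ETS word rose, 8 of 10 with the YY1 word and 4 of 4 with the NRF1 word, which are MRPL17, MRPL22, MRPL32 and MRPL52, and these shares were not tested against each other. The E-box word stood in 5 of 39 windows (12.8%), against 7.4% and 10.4%. The estrogen-related receptor word was in 0 of 39 windows, against 0.4% of all windows and 0.2% of those of tested genes. Its inner part was in 1 (2.6%), MRPL34, against 4.0% and 2.3%. Each match is a description of these letters and not a binding site.

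The levels ranged widely among the members. Means over the 6 libraries ran from 5.72 FPKM for MRPL50 to 97.5 FPKM for MRPL51, with a median of 24.1 FPKM; 26 of the 46 lay between 20 and 50 FPKM and 7 below 10 FPKM. MRPL51, a mitochondria-specific protein, stood at 102, 110.2 and 109 FPKM in siPGC1a cells, against 85.9, 87.5 and 90.5 FPKM in siNC cells, which was a rise of 1.22-fold (limma adjusted p = 0.000573). Next in level were MRPL28 and MRPL39, with means of 45.7 and 45.1 FPKM over the 6 libraries, and MRPL41 was close behind at 44.7 FPKM. In siPGC1a cells MRPL28 and MRPL39 were not apart beyond their spread. In siNC cells every MRPL28 value was above every MRPL39 value. MRPL28, which was also described as a melanoma antigen, had 48.8, 51.0 and 47.2 FPKM in siPGC1a cells, against 42.2, 42.7 and 42.5 FPKM in siNC cells (limma adjusted p = 0.00253), and its siNC values differed by less than 1 FPKM. At the low end, MRPL30 rose 1.14-fold, with 8.24, 7.6 and 8.54 FPKM in siPGC1a cells, against 7.37, 6.76 and 7.31 FPKM in siNC cells, and its groups did not overlap (limma adjusted p = 0.0301). That call was lost in 6 of 14 other settings, among them without siPGC1a replicate 1 or 3 or siNC replicate 2 or 3, with an adjusted p of up to 0.11. Size and direction of change were only weakly related to level across the members (Spearman rho 0.123, Pearson r 0.0867, 46 genes measured in the same libraries).

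**Figure D2:**
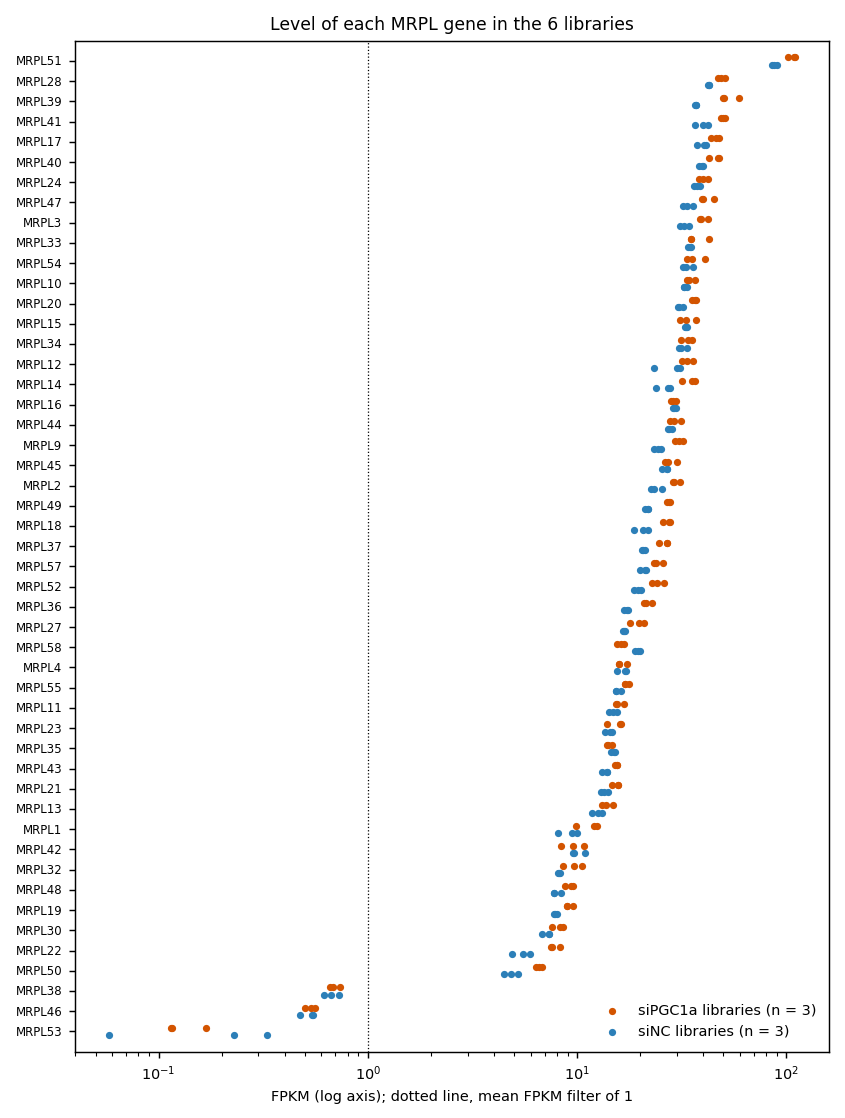
The level of all 49 MRPL genes in each library (FPKM on a log axis, 1 point per library, orange for siPGC1a and blue for siNC), ordered by mean. For 31 tested genes the orange points lie wholly to the right of the blue ones, and MRPL38, MRPL46 and MRPL53 lie left of the dotted filter line.

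In the stalks, mobile arms that handle tRNAs and translation factors, all 4 members had fold changes above 0 and 2 passed the threshold. MRPL12, which recruits translation factors and also binds the mitochondrial RNA polymerase, stood at 31.6, 35.9 and 33.6 FPKM in siPGC1a cells, against 23.2, 30.1 and 31.0 FPKM in siNC cells. The low library was siNC replicate 1, and without it the log2 fold change was 0.14, against 0.26 with it. The call of MRPL12 (ratio 1.20, limma adjusted p = 0.0432) was lost in 9 of 14 other settings, among them without any 1 of the siPGC1a libraries or siNC replicate 1, with an adjusted p of up to 0.204. MRPL1, of the stalk that releases spent tRNA, averaged 11.4 ± 1.41 FPKM in siPGC1a cells and 9.19 ± 1.0 FPKM in siNC cells (mean ± SD, n = 3 libraries each, as for all means below). Its groups overlapped, and its call (ratio 1.25, limma adjusted p = 0.0266) was lost without a filter and without siPGC1a replicate 1, siPGC1a replicate 3 or siNC replicate 3, with an adjusted p of up to 0.149. MRPL10, which anchors the MRPL12 stalk, averaged 34.8 ± 1.5 FPKM in siPGC1a cells and 32.7 ± 0.641 FPKM in siNC cells and MRPL11, at its base, 15.9 ± 0.723 FPKM in siPGC1a cells and 14.8 ± 0.627 FPKM in siNC cells, and neither passed (limma adjusted p = 0.122 and 0.142). The count of stalk members that rose was 0 without a filter, siPGC1a replicate 1 or siPGC1a replicate 3, and 1 without siPGC1a replicate 2, siNC replicate 1 or siNC replicate 3, with any of the 3 other scalings or with no trend.

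Around the exit of the tunnel 3 of 6 members rose and 3 did not pass. Besides MRPL22, MRPL47 averaged 41.6 ± 3.16 FPKM in siPGC1a cells and 33.8 ± 1.83 FPKM in siNC cells and MRPL17 45.8 ± 1.8 FPKM in siPGC1a cells and 39.7 ± 1.9 FPKM in siNC cells (limma adjusted p = 0.00303 and 0.0066). MRPL45, which docks the ribosome on the inner membrane, averaged 27.7 ± 1.92 FPKM in siPGC1a cells and 26.4 ± 0.864 FPKM in siNC cells, a difference within the spread (limma adjusted p = 0.322). MRPL23 and MRPL24, neighbours of the exit in bacteria, had ratios of 1.08 and 1.07 and did not pass either (limma adjusted p = 0.202 and 0.104). In the central protuberance, which contacts tRNAs and the small subunit, 3 of the 4 tested members rose. MRPL40 averaged 45.8 ± 2.76 FPKM in siPGC1a cells and 39.2 ± 0.889 FPKM in siNC cells and MRPL48 9.24 ± 0.471 FPKM in siPGC1a cells and 7.97 ± 0.368 FPKM in siNC cells (limma adjusted p = 0.00476 and 0.0127). The third was MRPL18, and the fourth was MRPL58, which fell. Over all tested genes 25.6% rose and 22.5% fell. The stalk, exit and central protuberance groups hold only 4 to 6 tested genes each. Their counts were not tested against those shares or against each other.

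Of the 30 bacterial-type members 19 rose, 0 fell and 11 did not pass, with a median log2 fold change of 0.20. The shares that rose and fell were 63.3% and 0%, beside 25.6% and 22.5% of all tested genes. MRPL2 and MRPL3, which reach toward the site of peptide bond formation, both rose. MRPL2 averaged 29.7 ± 1.26 FPKM in siPGC1a cells and 23.7 ± 1.5 FPKM in siNC cells and MRPL3 40.0 ± 1.85 FPKM in siPGC1a cells and 32.6 ± 1.7 FPKM in siNC cells (limma adjusted p = 0.00105 and 0.0012). MRPL27, whose bacterial homolog touches the tRNAs there, averaged 19.5 ± 1.44 FPKM in siPGC1a cells and 16.7 ± 0.188 FPKM in siNC cells (limma adjusted p = 0.0112, or 0.0537 without a filter). MRPL16, another protein of that region, showed no difference beyond the spread, at 28.0, 29.8 and 28.7 FPKM in siPGC1a cells, against 29.7, 28.6 and 29.025 FPKM in siNC cells (limma adjusted p = 0.814, 95% interval -0.10 to 0.08 on the log2 scale). MRPL4 was alike, with 15.9, 17.3 and 15.8 FPKM in siPGC1a cells, against 15.4, 17.2 and 17.0 FPKM in siNC cells (limma adjusted p = 0.819, 95% interval -0.14 to 0.10 on the log2 scale), and so was MRPL15, with 33.3, 31.0 and 37.1 FPKM in siPGC1a cells, against 32.9, 33.1 and 33.4 FPKM in siNC cells (limma adjusted p = 0.757, 95% interval -0.11 to 0.16 on the log2 scale). For these 3 genes the groups overlapped in full or nearly so, and the intervals leave room for small changes either way.

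MRPL36, a homolog of a small bacterial protein, averaged 21.7 ± 1.1 FPKM in siPGC1a cells and 17.2 ± 0.331 FPKM in siNC cells and rose 1.26-fold (limma adjusted p = 0.000404). MRPL32, which an inner membrane protease must trim before assembly, averaged 9.59 ± 0.978 FPKM in siPGC1a cells and 8.21 ± 0.0772 FPKM in siNC cells (limma adjusted p = 0.0282). The call was lost in 6 of 14 other settings, among them without siPGC1a replicate 2 or 3 or any 1 siNC library, with an adjusted p of up to 0.119. MRPL33 averaged 37.6 ± 4.57 FPKM in siPGC1a cells and 34.5 ± 0.683 FPKM in siNC cells, and MRPL34 33.6 ± 1.98 FPKM in siPGC1a cells and 31.8 ± 1.43 FPKM in siNC cells, and these 2 did not pass (limma adjusted p = 0.207 and 0.259). In MRPL33 a single library stood out, siPGC1a replicate 3 at 42.9 FPKM, beside 34.9 and 35.2 FPKM in the other siPGC1a libraries. Of the other bacterial-type members, MRPL35 averaged 14.2 ± 0.443 FPKM in siPGC1a cells and 14.9 ± 0.401 FPKM in siNC cells and did not pass (limma adjusted p = 0.245). MRPL20, which binds early in bacterial assembly, rose 1.17-fold, MRPL19 1.17-fold, MRPL21 1.14-fold and MRPL55 1.10-fold. MRPL55 lost its call in 5 settings (limma adjusted p of up to 0.129), among them without siPGC1a replicate 1 or siNC replicate 1 or 3, and MRPL21 without siNC replicate 3 (0.0627). MRPL13 missed the threshold at a ratio of 1.12 without overlap (limma adjusted p = 0.0563).

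Of the 16 tested mitochondria-specific members 11 rose, 1 fell and 4 did not pass, with a median log2 fold change of 0.22. In shares, 68.75% rose and 6.25% fell, beside 25.6% and 22.5% of all tested genes. MRPL37 averaged 26.1 ± 1.33 FPKM in siPGC1a cells and 20.8 ± 0.281 FPKM in siNC cells and MRPL52 24.3 ± 1.6 FPKM in siPGC1a cells and 19.5 ± 0.796 FPKM in siNC cells (limma adjusted p = 0.000414 and 0.00144). MRPL57 rose 1.17-fold and MRPL43 1.13-fold. MRPL44, an RNase III-like protein needed for a stable large subunit, averaged 29.5 ± 1.77 FPKM in siPGC1a cells and 27.7 ± 0.578 FPKM in siNC cells and did not pass (limma adjusted p = 0.169). MRPL42 stood at 9.57, 8.35 and 10.8 FPKM in siPGC1a cells, against 10.9, 9.58 and 9.71 FPKM in siNC cells, with siPGC1a replicate 2 the lowest of the 6, and did not pass (limma adjusted p = 0.512). MRPL54 did not pass either, at a ratio of 1.09 (limma adjusted p = 0.217).

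The libraries of a group did not weigh equally. The summed level of the 46 members was 1231, 1291 and 1323 FPKM in siPGC1a cells, against 1086, 1110.0 and 1119 FPKM in siNC cells, and every siPGC1a sum was above every siNC sum. The mean sum was 1282 ± 46.8 FPKM in siPGC1a cells and 1105 ± 17.1 FPKM in siNC cells. As a share of all FPKM this was 0.547% ± 0.013 in siPGC1a cells and 0.480% ± 0.0055 in siNC cells. Among the siPGC1a libraries replicate 3 held the highest value for 29 of 46 members and replicate 1 the lowest for 31. In siNC cells replicate 1 was the lowest for 24 and replicate 3 the highest for 17. The coefficient of variation had a median of 5.10% in siPGC1a cells and 3.70% in siNC cells, and was larger in siPGC1a cells for 31 members. With each library left out in turn, 25 to 29 members rose and 1 fell. Over all tested genes 2470 to 2896 rose and 2176 to 2513 fell in those fits.

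**Figure D3:**
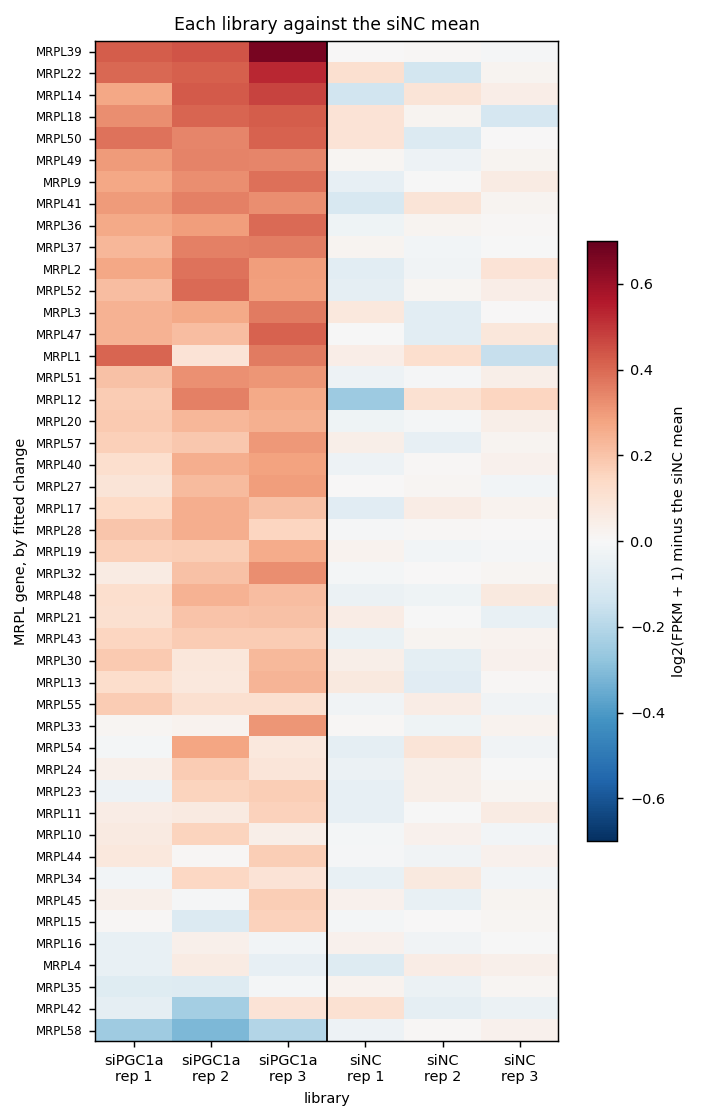
Each tested MRPL gene in each library as the difference of log2(FPKM + 1) from the siNC mean (color), with siPGC1a libraries left of the line and genes ordered by fitted change. Red runs through all 3 siPGC1a columns for most genes and is deepest for MRPL39 in replicate 3, and MRPL58 in the bottom row is blue in all 3.

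MRPL38, MRPL46 and MRPL53, all mitochondria-specific, were measured below the filter and were not tested. MRPL38 was at 0.662, 0.737 and 0.681 FPKM in siPGC1a cells, against 0.619, 0.725 and 0.67 FPKM in siNC cells. MRPL46 gave 0.501, 0.534 and 0.558 FPKM in siPGC1a cells, against 0.538, 0.549 and 0.476 FPKM in siNC cells. For both, the groups overlapped (exact two-sided permutation p = 0.6 and 0.7, where 3 against 3 libraries cannot go below 0.1). MRPL53 rested on about 2 to 12 reads per library, at 0.114, 0.116 and 0.168 FPKM in siPGC1a cells, against 0.331, 0.228 and 0.058 FPKM in siNC cells, so that no difference was detectable at this depth (exact permutation p = 0.4). The gap at the filter was wide, with MRPL50 at 5.72 FPKM just above it and MRPL38 at 0.682 FPKM just below. In GENCODE release 29, 45.2% of the exon bases of MRPL53 are shared with CCDC142, and 41.1% of those of MRPL38 and 11.3% of those of MRPL46 with other annotated genes. The part of shared exons in these low values was not tested.

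Overlap with other genes was checked for the tested members too, since the library kit marks strand but the strand setting of the counting is not given in the sources used here. No exon base was shared with another gene in 25 of the 46, and of these 17 rose, 1 fell and 7 did not pass, with a median log2 fold change of 0.20. The largest shares were 68.2% in MRPL12, whose partner on the same strand averaged 0.957 FPKM, 38.5% in MRPL9, 36.9% in MRPL43 and 31.3% in MRPL51. The values of these 4 are uncertain for that reason, by an amount that was not measured, since a share of exon bases is not a share of reads. The partners of MRPL9 averaged 0.049, 0.01 and 1.24 FPKM. Those of MRPL43 were SEMA4G, with 32.7% at 3.18 FPKM, and TWNK, with 4.2% at 15.5 FPKM. NCAPD2, which shares those 31.3% with MRPL51 on the other strand, did not pass (limma adjusted p = 0.125). NCAPD2 averaged 53.4 ± 0.548 FPKM in siPGC1a cells and 56.1 ± 1.10 FPKM in siNC cells. Smaller shares lay with expressed genes too. MRPL49 shares 9.2% with FAU, which averaged 128 FPKM, and 11.6% with SYVN1, at 16.5 FPKM, both on the other strand. MRPL47 shares 9.1% with ACTL6A on the other strand, at 20.7 FPKM. On the same strand, MRPL33 shares 21.1% with BABAM2, at 7.04 FPKM, and MRPL28 7.3% with TMEM8A, at 19.3 FPKM. The part of these overlaps in the values was not tested. A group of 10 tested members has a tested gene that starts within 1000 bases on the other strand and is read the opposite way. Of these partners 2 rose, 1 fell and 7 did not pass. TCP1, a chaperonin subunit opposite MRPL18, averaged 34.4 ± 1.05 FPKM in siPGC1a cells and 28.5 ± 0.9 FPKM in siNC cells (limma adjusted p = 0.000766), and MITD1, opposite MRPL30, rose 1.19-fold (0.0232 by the same test). ZNF189, a zinc finger gene opposite MRPL50, fell to 3.40 ± 0.114 FPKM in siPGC1a cells, against 4.15 ± 0.154 FPKM in siNC cells (limma adjusted p = 0.00414).

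Large subunit proteins with other names, assembly factors, the small subunit and the cytosolic ribosome were set beside the members by count. GADD45GIP1 and MRPS30, both mitochondria-specific proteins of the large subunit, rose, and MRPS18A did not pass. GADD45GIP1 averaged 47.3 ± 3.08 FPKM in siPGC1a cells and 34.2 ± 1.51 FPKM in siNC cells and MRPS30 7.54 ± 0.151 FPKM in siPGC1a cells and 5.73 ± 0.0907 FPKM in siNC cells (limma adjusted p = 0.000138 and 0.000174). Of 20 tested factors that assemble the large subunit or modify its rRNA, 6 rose, 2 fell and 12 did not pass, with a median log2 fold change of 0.11. The share that rose, 30%, was near the 25.6% of all tested genes, and 10% fell, beside 22.5%. NDUFAB1, the acyl carrier protein that docks on the nascent subunit, averaged 67.5 ± 4.13 FPKM in siPGC1a cells and 50.9 ± 1.01 FPKM in siNC cells. DHX30, an RNA helicase, averaged 17.2 ± 0.4 FPKM in siPGC1a cells and 14.3 ± 0.0519 FPKM in siNC cells, and RCC1L, of the same assembly pathway, 4.82 ± 0.321 FPKM in siPGC1a cells and 3.59 ± 0.176 FPKM in siNC cells (limma adjusted p = 0.000147, 0.000639 and 0.00095). The factors that fell were MRM1, an rRNA methyltransferase, and DDX28, an RNA helicase, at ratios of 0.806 and 0.89 (limma adjusted p = 0.00287 and 0.0398). That count was 1 with no filter, with quantile normalization, and without siPGC1a replicate 1 or 3 or any 1 siNC library.

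Among 26 tested proteins of the mitochondrial small subunit 19 rose, 1 fell and 6 did not pass, with a median log2 fold change of 0.22. In shares, 73.1% rose and 3.85% fell, beside 65.2% and 2.17% of the MRPL genes and 25.6% and 22.5% of all tested genes. The rise was thus not particular to the MRPL genes. The smallest adjusted p values were those of MRPS7, MRPS23 and MRPS15 (limma adjusted p = 5.48e-05, 0.000233 and 0.000303), at ratios of 1.34, 1.29 and 1.28. The gene that fell was MRPS36 (ratio 0.818, limma adjusted p = 0.0299), whose product is now placed in the alpha-ketoglutarate dehydrogenase complex. The count that fell was 0 with no filter and without siPGC1a replicate 1 or 2 or siNC replicate 1 or 3, 2 without siPGC1a replicate 3 and 3 with quantile normalization. Of 45 tested proteins of the cytosolic large subunit 5 rose, 3 fell and 37 did not pass, with a median log2 fold change of 0.03. Both shares, 11.1% and 6.67%, were below the 25.6% and 22.5% of all tested genes. The count that rose was 2 with no filter, 3 with a filter of 5 FPKM or no trend, 10 without siPGC1a replicate 1, 3 without siNC replicate 1 or 2 and 2 without any 1 of the other 3 libraries. The count that fell was 5 with libraries scaled to one sum and 6 with quantile normalization. RPLP0, RPL37 and RPL3 fell, at ratios of 0.888, 0.876 and 0.90 (limma adjusted p = 0.00451, 0.00682 and 0.0169), and RPL22 rose, at 1.23 (limma adjusted p = 0.006). Cytosolic ribosomal protein genes have many processed copies, so their values are uncertain where reads were shared. The differences between these lists were not tested.

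**Figure D4:**
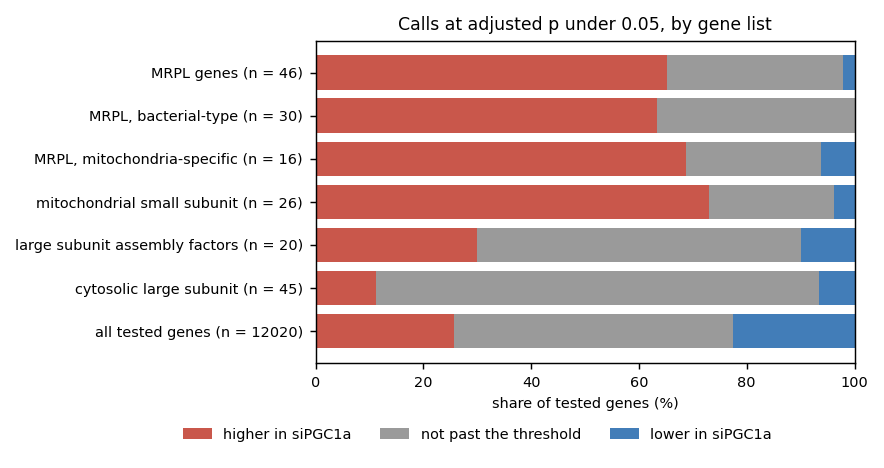
The share of tested genes (horizontal axis, %) that rose (red), did not pass (grey) or fell (blue) in siPGC1a cells, for the MRPL genes, their classes and the lists set beside them, with the number of tested genes after each name. The MRPL genes have 30 of 46 in red, against 25.6% of all tested genes.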

How the data were processed

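The deposited table holds FPKM values per gene for 6 libraries of polyadenylated RNA, which the authors made from their reads. STAR, Picard, featureCounts, DESeq2 and the build hg19 are named in the submitters' processing notes, with no versions of the tools. Gene annotation, strand setting and siRNA sequences: not given in the sources used here.

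From these values, rows with a mean of at least 1 FPKM were kept, and PPARGC1A regardless. Values entered limma 3.58.1 (R 4.3.3, trend on, two-sided) as log2(FPKM + 1) for siPGC1a against siNC, with Benjamini-Hochberg adjustment over all 12020 tested genes and a threshold of 0.05. A gene was called separated where the 3 values of a group lay wholly above or below those of the other. The procedure was tested on simulated independent genes. Recovery was required there only for changes larger than the members' median change, so that test says little on smaller ones. The members, lists and motifs were chosen with earlier results of these data known. Every MRPL gene could be named, and values per library are given for the 8 largest rises, any fall, the 3 highest, the 3 lowest and the 3 smallest changes, with a few added after their values were seen (MRPL12, MRPL42 and those below the filter). Of each list set beside them, up to 3 genes with the smallest adjusted p were named, and genes that fell.

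Depth was estimated from the steps between low FPKM values of short RNA genes, with exon lengths from GENCODE release 29, for which 87.6 to 92.7% of values of at most 20 reads lay within 0.1 of a whole read (chance gives 20%). Read numbers are therefore approximate. Date-like symbols took 27 rows of the table, none of them used. Promoter windows are RefSeq's, on GRCh38.p14.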

Additional observations from a re-analysis of the deposited data

How the results depend on the processing

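The fit was repeated with 14 other settings: a pseudocount of 0.1, no filter, a filter of 5 FPKM, 3 other scalings, no trend, a replicate block and each library left out. The number of members that rose was 25 without a filter, 27 to 31 in the 6 other settings that kept all libraries and had no block, and 25 to 29 with 1 library left out. MRPL58 fell in each of them. The call held in all 14 settings for 23 of the 30 members that rose and was lost in at least 1 for MRPL1, MRPL12, MRPL21, MRPL27, MRPL30, MRPL32 and MRPL55. In the other direction, 4 members that did not pass in the main fit passed as higher in some setting. These were MRPL13 in 4 of 14 settings, and MRPL23, MRPL24 and MRPL54 in 1 each. The members' median log2 fold change lay between 0.16 (quantile normalization) and 0.23. Over all tested genes, 1607 fell with the filter of 5 FPKM, against 2707, and 2519 rose, against 3075. Fewer genes were tested there, and the number that fell dropped more than the number that rose. Signs turned only for members that did not pass: MRPL15 was at -0.033 with quantile normalization, and with 1 library left out MRPL15 ranged from -0.044 to 0.083, MRPL4 from -0.063 to 0.011, MRPL16 from -0.036 to 0.0080 and MRPL42 from -0.15 to 0.017. With the replicate number as a block 33 members rose and 1 fell, and 3253 of all genes rose and 2826 fell. The labels do not say whether the numbers pair the libraries. Deviations of same-numbered libraries correlated at 0.077, 0.261 and -0.058, and 2 of 3 siPGC1a libraries correlated best with their own number. So few libraries cannot settle whether they are paired, and the main fit used no block. With 3 libraries a group, small changes can be missed.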

Other observations

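Of the rows with MRPL symbols that the rule left out, 21 of 33 pseudogene rows were at 0 in every library. MRPL20-AS1, named as antisense to MRPL20, was at 19.8, 21.8 and 20.04 FPKM in siPGC1a cells, against 20.6, 21.8 and 20.8 FPKM in siNC cells, while MRPL20 itself rose 1.17-fold. The symbol MRPL20-AS1 has no match in GENCODE release 29, so its overlap with MRPL20 was not measured.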
